A study of Mus musculus with 9 samples.

Results

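In macrophage RNA, 7 genes of the hypoxia pathway were followed: the transcription factor subunits Hif1a and Epas1, the oxygen sensor Egln3, and the hypoxia targets Ndrg1, Vegfa, Bnip3 and Pdk1. They are 7 of the 47731 genes in the RNA table, found by mouse symbol. They were chosen by their RNA levels in these same knockout and wild-type libraries, so their RNA differences are given as a description, with no test. Ndrg1 was higher in knockout macrophages, Vegfa and Epas1 were lower, and the knockout and wild-type values of Hif1a, Bnip3, Egln3 and Pdk1 overlapped.

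The samples were mouse macrophages labelled Tet2 Knockout or wild type, all treated with M-CSF, the growth factor that supports macrophage survival and differentiation, and all at passage 0. TET2 oxidises 5-methylcytosine in DNA to 5-hydroxymethylcytosine (5hmC). RNA depleted of ribosomal RNA was sequenced in 2 knockout and 3 wild-type libraries, and 5hmC-enriched DNA in 2 knockout and 2 wild-type libraries. The labels give neither the animals' age or sex, nor the knockout allele, nor whether the libraries came from separate animals, so p-values here speak to library-to-library spread alone, and that spread may be technical.

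HIF is a dimer of an oxygen-sensitive alpha subunit (HIF1A or EPAS1, also called HIF2A) and the stable partner ARNT. In the presence of oxygen the prolyl hydroxylases of the EGLN family mark the alpha subunit for destruction through VHL; without oxygen the dimer binds short DNA elements beside genes of glycolysis, angiogenesis and mitochondrial turnover. Because the alpha subunits are controlled mainly as proteins, RNA measures only one layer of the pathway, and in macrophages HIF1A is also known for supporting glycolytic and inflammatory gene expression.

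The RNA libraries held 16053426 and 25479447 counts in knockout replicates 1 and 2, and 17569441 to 56394358 in the 3 wild-type replicates. Levels below are normalised CPM, that is, counts per 1000000 of the library size after TMM scaling; they are not divided by gene length and compare libraries, not genes. The 12 macrophage markers summed to 17757 and 20149 normalised CPM in the knockout libraries, and to between 14410 and 22773 in the wild-type libraries, with Lyz2 the largest part in each of the 5. Among the 12, 4 were higher in knockout without overlap and 4 lower: Adgre1 had 7100 and 5726 in knockout against 1588, 2912 and 759 in wild type, and Fcgr3 had 34.4 and 41.7 against 687, 303 and 417. The part of these markers in the results below was not tested. The 14 stromal and osteoblast markers summed to 25.2 and 16.1 in the knockout libraries, against 9.30, 7.63 and 5152 in wild-type replicates 1, 2 and 3, and 10 of the 14 were at least 10 times as high in wild-type replicate 3 as in any other library. The 8 granulocyte markers summed to 1.53 and 168 in knockout against 152, 9.70 and 1.79 in wild type, with Ly6g at 0. Wild-type replicate 3 therefore stands apart. The fitted differences of the 7 genes, and the directions of gene lists where counted, are given with and without it. The fitted differences of other genes, where given, are also shown without it if it moved the fold by over 1.5 times. Tet2 itself had 228 and 122 normalised CPM in the libraries labelled knockout, against 104, 136 and 39.2 in the wild-type libraries; its RNA was not lower in the libraries labelled knockout (log2 0.91 ± 0.56 SE, edgeR adjusted p = 0.520). The sources used here do not say which part of the gene was deleted, so this does not check the labels, and knockout below means the libraries so labelled. In bulk RNA, fewer cells of a kind and less RNA per cell cannot be told apart.

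The promoters of 5 of the 7 genes were in the RefSeq promoter table of build GRCm38.p6, with 2 entries each for Vegfa and Pdk1; Ndrg1 and Epas1 had no entry. The 250 bases before the annotated start were searched on both strands for ACGTG and GCGTG, the core letters of the hypoxia response element, which HIF binds. The 5 windows below are printed because each holds at least 1 match, read 5′ to 3′ on the gene's strand with the matched letters in capitals. The windows lie at chr12:73907617-73907866 on the plus strand (Hif1a), chr7:138909507-138909756 on the minus strand (Bnip3), chr12:54203875-54204124 on the minus strand (Egln3), chr2:71872974-71873223 on the plus strand (Pdk1) and chr17:46025164-46025413 on the minus strand (Vegfa, the start that lies inside the gene).
Hif1a: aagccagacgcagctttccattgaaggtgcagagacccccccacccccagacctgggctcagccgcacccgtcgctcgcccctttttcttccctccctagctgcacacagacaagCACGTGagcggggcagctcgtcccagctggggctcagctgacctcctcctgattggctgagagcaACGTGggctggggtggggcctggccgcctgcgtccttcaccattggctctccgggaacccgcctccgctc
Bnip3: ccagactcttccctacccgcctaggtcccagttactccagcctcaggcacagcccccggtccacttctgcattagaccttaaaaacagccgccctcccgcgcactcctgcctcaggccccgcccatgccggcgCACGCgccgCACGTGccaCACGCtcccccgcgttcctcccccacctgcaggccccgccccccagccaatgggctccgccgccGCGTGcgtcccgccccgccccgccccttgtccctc
Egln3: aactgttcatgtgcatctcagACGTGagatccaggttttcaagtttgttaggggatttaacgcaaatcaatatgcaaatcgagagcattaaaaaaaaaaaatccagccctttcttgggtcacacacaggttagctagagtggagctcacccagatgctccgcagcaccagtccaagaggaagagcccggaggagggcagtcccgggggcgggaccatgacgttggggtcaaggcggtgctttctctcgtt
Pdk1, first entry: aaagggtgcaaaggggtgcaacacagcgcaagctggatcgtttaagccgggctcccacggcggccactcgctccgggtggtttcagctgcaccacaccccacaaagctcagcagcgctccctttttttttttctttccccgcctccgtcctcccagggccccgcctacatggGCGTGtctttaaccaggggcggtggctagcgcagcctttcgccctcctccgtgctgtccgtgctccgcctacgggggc
Vegfa, second entry: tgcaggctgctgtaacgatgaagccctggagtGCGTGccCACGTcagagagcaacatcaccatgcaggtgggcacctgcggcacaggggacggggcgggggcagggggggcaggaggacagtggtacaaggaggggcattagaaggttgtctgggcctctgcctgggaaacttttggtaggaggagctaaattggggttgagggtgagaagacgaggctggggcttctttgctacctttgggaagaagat

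Bnip3 held 5 matches in 4 separate stretches and Hif1a held 3 matches in 2 stretches. In both genes, 2 of the matches overlap on opposite strands as CACGTG. The Vegfa window printed held 2 matches, and Egln3 and the first Pdk1 entry held 1 each. The other Vegfa entry, at the gene's outer start, and the second Pdk1 entry held 0. Among 32851 mouse promoter windows of the same length, 38.6% held at least 1 match, 16.7% at least 2 and 6.58% at least 3. The share of G and C was 72.4% for Bnip3, 66.4% for Hif1a, 64% for the first Pdk1 entry and 59.6% for the printed Vegfa window, above the median of 52.4% over all windows, and 50.8% for Egln3, below it. A match is a string of letters, not a measured binding site.

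Epas1 (chr17:86753864-86833410, GRCm38.p6), the alpha subunit HIF2A, was nearly undetected in knockout macrophages. It had 0.183 and 0.343 normalised CPM in knockout replicates 1 and 2, against 12.5, 4.89 and 24.3 in wild-type replicates 1, 2 and 3. These rest on 3 and 9 counts in the knockout libraries, with exact Poisson 95% intervals of 0.0378 to 0.535 and 0.157 to 0.650 normalised CPM that cover counting error only, against 183, 266 and 1453 counts in the wild-type libraries. Every knockout library lay below every wild-type library, and the lowest wild-type library was 14.3 times the highest knockout library. The genotype means were 0.263 ± 0.113 normalised CPM in knockout macrophages (SD, n = 2) and 13.9 ± 9.77 in wild-type macrophages (SD, n = 3), with a fitted log2 fold change, knockout over wild type, of -5.67 ± 0.95 (SE). Without wild-type replicate 3, the library with stromal markers and the highest Epas1, it was -4.97 ± 0.75.

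Hif1a (chr12:73901324-73947554), the alpha subunit best known in macrophages, was expressed in every library. It had 145 and 163 normalised CPM in the knockout libraries, against 135, 122 and 340 in wild-type replicates 1, 2 and 3. Wild-type replicate 3 was the highest library, and both knockout libraries lay above the other 2 wild-type libraries. The fitted log2 difference was -0.38 ± 0.51 over the 5 libraries and 0.25 ± 0.21 when wild-type replicate 3 was left out, so its sign rests on that library. A long noncoding gene inside Hif1a, Gm15283, had at most 3 counts in any library.

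Of the other 3 HIF subunits, edgeR and DESeq2 called 0, and 1, Hif3a, had an unadjusted edgeR p under 0.05. Arnt, the shared beta subunit, had 70.4 and 54.4 normalised CPM in knockout macrophages, against 65.9, 57.6 and 42.2 in wild type, which overlap (log2 0.18 ± 0.27; edgeR adjusted p = 0.797). Hif3a, a further alpha subunit whose shorter forms can inhibit HIF, had 5.68 and 2.25 in knockout against 0, 0.386 and 0 in wild type; the groups do not overlap, but edgeR did not call it (log2 4.73 ± 1.62, adjusted p = 0.305). Its fold rests on 21 counts in wild-type replicate 2, since the other 2 wild-type libraries had 0: the log2 was 9.86 without replicate 2, 4.01 without replicate 3 and 3.99 without knockout replicate 1. Arnt2, a second beta subunit, was at or below 0.343 normalised CPM in the knockout libraries and between 0.0551 and 2.91 in the wild-type libraries.

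Egln3 (chr12:54178981-54203874), the prolyl hydroxylase that is itself a HIF target, rested on few counts. It had 0.305 and 0.952 normalised CPM in knockout, from 5 and 25 counts, against 0.615, 0.478 and 1.55 in wild type, from 9, 26 and 93 counts. The groups overlap, knockout replicate 1 was the lowest library and wild-type replicate 3 the highest. The log2 difference was -0.48 ± 0.82 over the 5 libraries and 0.27 ± 0.73 when wild-type replicate 3 was left out, both smaller than their SE. Of its paralogs, Egln1, the main hydroxylase in most cells, had 30.3 and 47.7 in knockout against 44.5, 44.3 and 54.2 in wild type. Egln2 had 132 and 107 in knockout against 66.9, 70.6 and 55.2 in wild type, with no overlap (log2 0.89 ± 0.21; edgeR adjusted p = 0.219, DESeq2 adjusted p = 0.00539). Siah2, a ubiquitin ligase that degrades EGLN proteins, had 52.7 and 28.4 in knockout against 15.5, 15.7 and 22.6 in wild type (log2 1.18 ± 0.35; edgeR adjusted p = 0.268). Vhl, the ligase subunit that recognises hydroxylated HIF, overlapped between genotypes, with 21.2 and 27.3 in knockout against 32.4, 23.0 and 27.1 in wild type. Of the 10 tested genes of HIF oxygen sensing and turnover besides Egln3, 6 had a positive and 4 a negative fitted difference, or 5 and 5 without wild-type replicate 3.

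Ndrg1 (chr15:66929318-66969641), a stress-response gene strongly induced by low oxygen in many cell types, was higher in both knockout libraries. It had 1698 and 834 normalised CPM in knockout replicates 1 and 2, against 88.3, 109 and 34.2 in wild-type replicates 1, 2 and 3. The lowest knockout library was 7.66 times the highest wild-type library, and wild-type replicate 3 was the lowest of all. The means were 1266 ± 611 in knockout macrophages (SD, n = 2) and 77.1 ± 38.6 in wild-type macrophages (SD, n = 3), with a log2 difference of 4.04 ± 0.61, and of 3.68 ± 0.48 without wild-type replicate 3. Its paralogs had fitted log2 differences of 0.85 ± 0.55 (Ndrg2), -0.53 ± 0.32 (Ndrg3) and 0.63 ± 0.98 (Ndrg4), and whether these differ from that of Ndrg1 was not tested. Without wild-type replicate 3 that of Ndrg4 was 2.09 ± 0.58. Ndrg2 had 3.36 and 6.05 in knockout against 3.15, 3.25 and 1.47 in wild type, Ndrg3 had 26.7 and 38.7 against 61.4, 44.5 and 36.3, and Ndrg4 had 5.13 and 9.52 against 1.09, 2.28 and 10.7. Among the marker lists, 6 dendritic cell markers summed to 18.9 and 8.18 in knockout against 4.03, 4.50 and 2.01 in wild type, and 6 B cell markers to 24.4 and 11.7 against 1.09, 2.72 and 15.1; their part in the Ndrg1 difference was not tested.

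Vegfa (chr17:46016993-46032377), the angiogenic growth factor and a classical HIF target, was lower in both knockout libraries. It had 5.37 and 8.83 normalised CPM in knockout macrophages, against 117, 38.0 and 108 in wild-type replicates 1, 2 and 3. No libraries overlapped, and the lowest wild-type library, replicate 2, was 4.30 times the highest knockout library. The means were 7.10 ± 2.45 in knockout macrophages (SD, n = 2) and 87.6 ± 43.2 in wild-type macrophages (SD, n = 3), with a log2 difference of -3.62 ± 0.62, and of -3.44 ± 0.65 without wild-type replicate 3. The difference was therefore nearly as large without the library that carried the stromal markers. The 5 megakaryocyte markers also summed lower in knockout, to 45.9 and 37.7 against 245, 80.9 and 196 in wild type; of these only Vwf, which endothelial cells also make, was lower without overlap, at 13.4 and 16.9 in knockout against 233, 59.0 and 74.0 in wild type. Endothelial markers overlapped in their sum, with 42.9 and 20.7 in knockout against 20.3, 9.996 and 31.7 in wild type. Of these only Pecam1 did not overlap, and it was higher, at 25.9 and 6.93 in knockout against 2.19, 1.43 and 2.36 in wild type. The part of either list in the Vegfa difference was not tested.

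**Figure D1:**
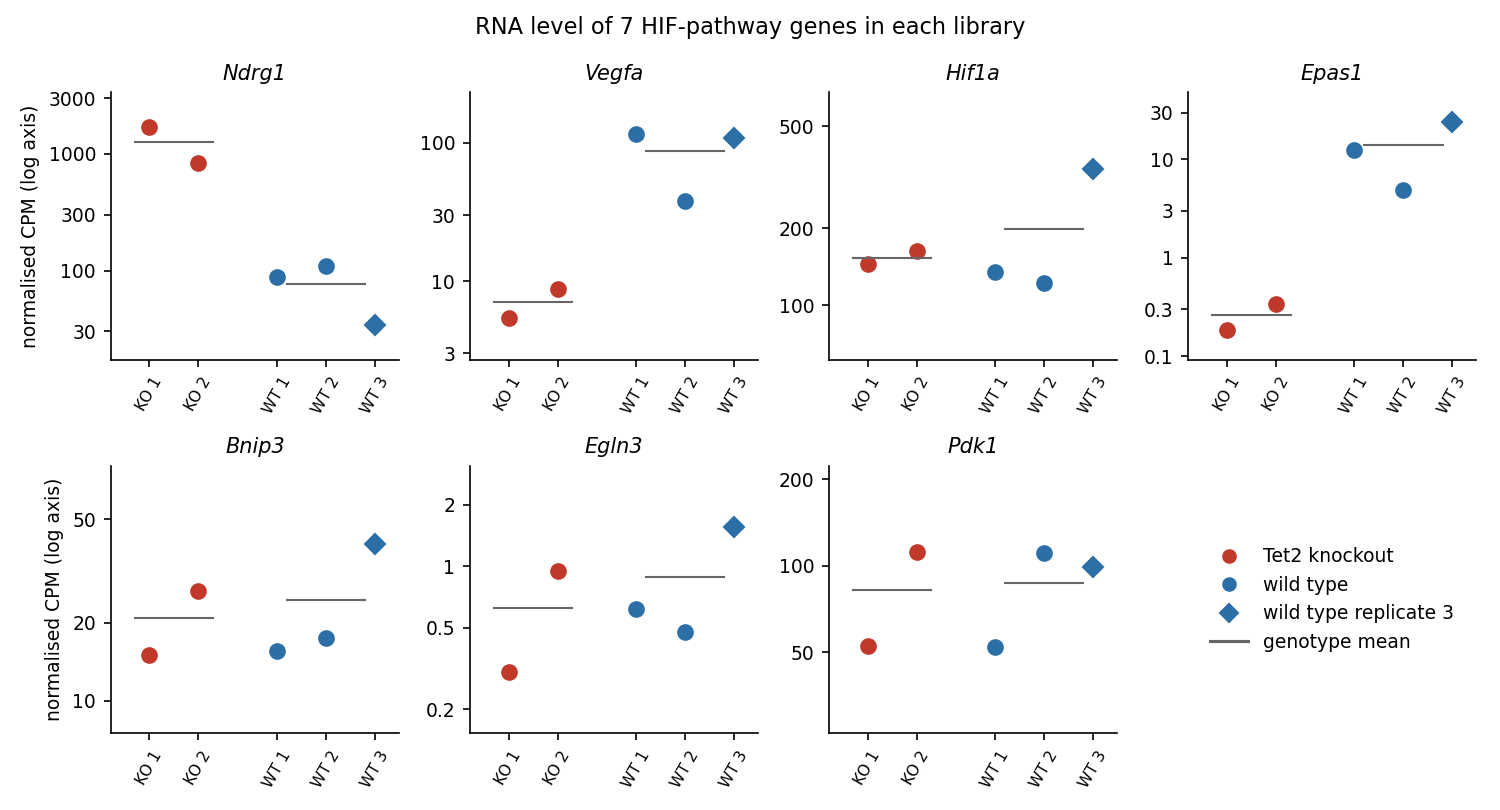
RNA level of each of the 7 genes (normalised CPM, log axis) in the 2 knockout and 3 wild-type libraries; each point is 1 library, the diamond is wild-type replicate 3 and the line is the genotype mean. Ndrg1 is at 834 or more in both knockout libraries and at 109 or less in all wild-type libraries, Vegfa and Epas1 are lower in both knockout libraries, and the other 4 genes overlap.

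Bnip3 (chr7:138890836-138909506), a mitochondrial outer-membrane protein that promotes mitophagy, had 15.0 and 26.5 normalised CPM in knockout macrophages, against 15.5, 17.5 and 40.3 in wild type. Wild-type replicate 3 was again highest and the groups overlap, with a log2 difference of -0.24 ± 0.53, and of 0.33 ± 0.36 without wild-type replicate 3. RefSeq places a pseudogene, Gm18258, over the Bnip3 locus, so a share of reads could be split between them. Pdk1 (chr2:71873215-71903858), the kinase that inactivates pyruvate dehydrogenase and so keeps pyruvate from mitochondrial oxidation, had 52.5 and 112 in knockout, against 52.1, 110 and 98.8 in wild type. The 2 knockout libraries differed from each other as much as the wild-type libraries did, and the log2 difference was -0.08 ± 0.46, and 0.01 ± 0.52 without wild-type replicate 3.

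Over the 7 genes, 1 was higher and 2 were lower in knockout with no overlap between genotypes; across all 14851 tested genes these shares were 17.2% and 19%. Because the genes were chosen on this contrast, nothing is read from the counts. The median log2 difference of the 7 was -0.38 over the 5 libraries and 0.25 when wild-type replicate 3 was left out, beside -0.03 and -0.01 over all tested genes. Ndrg1 kept a positive difference in all 12 fits run (3.45 to 4.44), and Vegfa (-4.04 to -3.26) and Epas1 (-6.23 to -4.79) a negative one, whereas Hif1a (-0.64 to 0.25), Bnip3 (-0.72 to 0.33), Egln3 (-1.54 to 0.27) and Pdk1 (-0.74 to 0.36) took both signs.

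**Figure D2:**
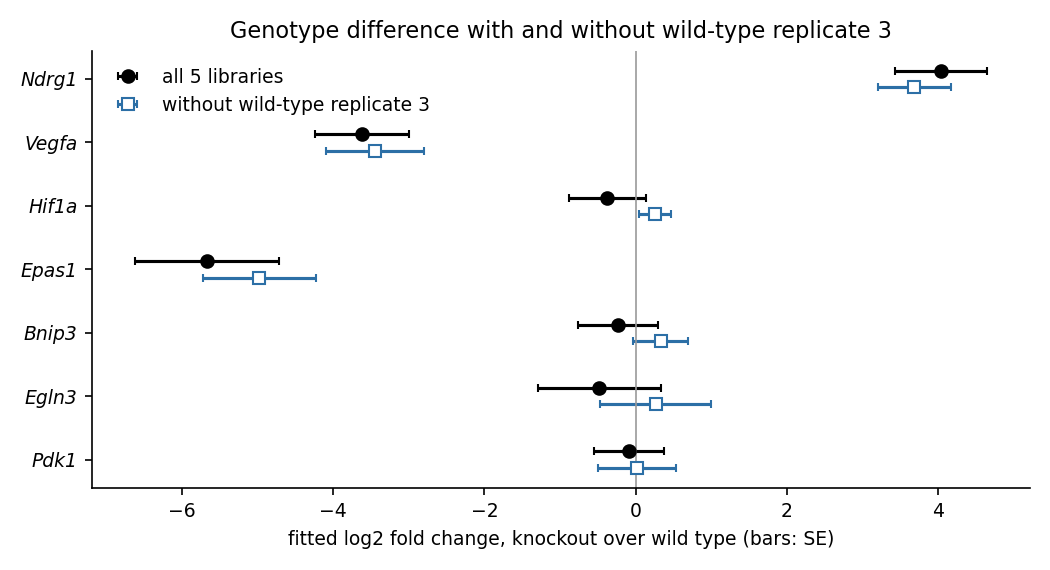
Fitted log2 fold change, knockout over wild type, of each of the 7 genes with all 5 libraries (circles) and without wild-type replicate 3 (squares); bars are SE. Ndrg1 (4.04 and 3.68), Vegfa (-3.62 and -3.44) and Epas1 (-5.67 and -4.97) keep their direction, and Hif1a, Bnip3, Egln3 and Pdk1 move across 0.

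The 7 genes differed in shape over the 5 libraries. Each gene's log2 level (0.5 CPM added) was centred on its own mean and genes were compared by the root mean square difference over the 5 libraries. Bnip3 and Egln3 were the closest pair (0.166), then Hif1a and Bnip3 (0.231) and Hif1a and Egln3 (0.268), 3 genes that peak in wild-type replicate 3. Pdk1 was instead highest in knockout replicate 2, and lay 0.443 from Bnip3, 0.469 from Egln3 and 0.611 from Hif1a. Vegfa and Epas1 were 0.455 apart, and Ndrg1 and Epas1 were farthest (4.17). Of 10992 genes with a mean of at least 1 CPM, those nearest in shape to Ndrg1 were Sez6l2 (0.214), Tagap (0.441) and Il2ra (0.445). Nearest to Vegfa were Tmem37 (0.168), Aig1 (0.173) and Timp2 (0.231), and nearest to Epas1 were Samd4 (0.273), Fbxo32 (0.286) and Ptgfrn (0.302). Nearest to Bnip3 were Tmem97 (0.0911), Fam162a (0.0990) and Galk1 (0.127), and nearest to Hif1a were Lonrf1 (0.113), Higd1a (0.127) and Zfp697 (0.128). Nearest to Egln3 were Slc30a4 (0.0538), Rcan1 (0.0568) and Tnfrsf23 (0.0647), and nearest to Pdk1 were Dek (0.0995), Myoz1 (0.121) and Eri2 (0.130). The added 0.5 CPM is of the size of the Egln3 levels (0.305 to 1.55) and exceeds those of Epas1 in knockout (0.183 and 0.343). It flattens the shapes of both genes, so their distances depend on it. The 5 points per gene describe a shape only.

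The rest of the pathway was read from 9 lists, 85 genes besides the 7, of which 77 could be tested. Fitted differences were positive for 39 and negative for 38, with a median log2 of 0.01 beside -0.03 for all genes. This balance depended on single libraries, in both directions. Without wild-type replicate 3, 48 of 75 were positive and 27 negative, with a median of 0.21 beside -0.01. Without knockout replicate 2, 31 of 84 were positive and 53 negative, with a median of -0.26 beside -0.14. Without wild-type replicate 1, 33 of 79 were positive and 46 negative, with a median of -0.09 beside -0.04. edgeR called 0 of the 77 at an adjusted p under 0.05, beside 0.0135% of all tested genes (2 of 14851). At an unadjusted p under 0.05 there were 6 higher and 10 lower of 77, where all genes gave 5.95% and 7.86%. Without overlap 12 were higher and 12 lower, which for 77 genes is below the 17.2% and 19% of all genes. DESeq2 called 3 higher (Egln2, Hk2 and Nos2), where it called 3.37% of all genes, and 9 lower (Mxi1, Bhlhe40, Bnip3l, Vegfb, Nrp1, Pdp1, Map1lc3b, Pink1 and Cxcr4), where it called 4.79%.

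Ligands and receptors of the VEGF family differed in direction, and edgeR called 0 of the 7 tested besides Vegfa (1 higher and 2 lower had an unadjusted p under 0.05, beside 5.95% and 7.86% of all genes, and DESeq2 called 2 lower, beside 4.79%). Vegfb, a ligand of FLT1, had 4.76 and 7.61 normalised CPM in knockout macrophages, against 20.2, 13.4 and 18.0 in wild type (log2 -1.47 ± 0.37; edgeR adjusted p = 0.230, DESeq2 adjusted p = 0.00538). Nrp1, a co-receptor for VEGF, had 236 and 226 in knockout against 564, 435 and 557 in wild type (log2 -1.17 ± 0.25; edgeR adjusted p = 0.200, DESeq2 adjusted p = 1.56e-04). Vegfc, the lymphatic ligand, lay on the other side, with 18.6 and 20.2 in knockout against 0.0684, 2.65 and 3.36 in wild type (log2 3.23 ± 1.14; edgeR adjusted p = 0.317), and Nrp2 overlapped. Of the 7 tested genes of this list besides Vegfa, 4 had a positive and 3 a negative fitted difference, or 5 and 2 without wild-type replicate 3.

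Of the genes that work with Bnip3 in mitophagy, 6 of 7 had a negative fitted difference, with a list median of -0.22, and again 6 of 7 without wild-type replicate 3. edgeR called 0 of the 7 and DESeq2 called 3, the same number that were lower at an unadjusted edgeR p under 0.05; for all genes the shares were 4.79% by DESeq2 and 7.86% unadjusted. Pink1, the kinase that marks damaged mitochondria, had 8.55 and 11.3 normalised CPM in knockout macrophages, against 112, 27.5 and 34.8 in wild type (log2 -2.54 ± 0.73; edgeR adjusted p = 0.251, DESeq2 adjusted p = 0.00851), or -1.68 ± 0.32 without wild-type replicate 1. Bnip3l, the closest paralog of Bnip3, had 41.5 and 55.2 in knockout against 177, 86.1 and 98.3 in wild type (log2 -1.32 ± 0.39; edgeR adjusted p = 0.265, DESeq2 adjusted p = 0.0410). Map1lc3b, the LC3 protein that BNIP3 binds, had 60.1 and 64.3 in knockout against 169, 99.3 and 118 in wild type (log2 -1.05 ± 0.29; edgeR adjusted p = 0.243, DESeq2 adjusted p = 0.0312). In all 3, wild-type replicate 1 was highest and both knockout libraries were lowest.

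Around Pdk1, the pyruvate dehydrogenase phosphatase Pdp1, which reverses the kinases, had 20.5 and 16.6 normalised CPM in knockout macrophages, against 71.4, 28.8 and 48.2 in wild type (log2 -1.42 ± 0.43; edgeR adjusted p = 0.268, DESeq2 adjusted p = 0.0492). The kinase Pdk2 had 0.550 and 1.56 in knockout against 7.11, 4.87 and 2.02 in wild type (log2 -2.12 ± 0.79; edgeR adjusted p = 0.335), or -3.09 without knockout replicate 2, and Pdk3 overlapped. Pdk4 had 21.8 normalised CPM in wild-type replicate 3 and 0 counts in the other 4 libraries. Of the 8 tested genes of this list besides Pdk1, 1 was higher and 7 were lower in the fit, and 3 were higher and 5 lower without wild-type replicate 3.

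The macrophage effectors of HIF ranged widely. Of 5 tested, 3 had a positive and 2 a negative fitted difference, or 4 and 1 without wild-type replicate 3. edgeR called 0 of them, and DESeq2 called 1 higher and 1 lower, beside 3.37% and 4.79% of all genes. Cxcr4, the chemokine receptor, had 3.97 and 16.4 normalised CPM in knockout macrophages, against 338, 73.3 and 229 in wild type (log2 -4.38 ± 0.99; edgeR adjusted p = 0.209, DESeq2 adjusted p = 1.69e-05). The log2 was -3.69 without knockout replicate 1 and -5.76 without knockout replicate 2. Its order of the wild-type libraries, replicate 1, then 3, then 2, was that of Vegfa. It was also that of Vegfb, Nrp1, Bnip3l, Map1lc3b, Pink1, Pdp1 and Mxi1, so it is not particular to Cxcr4 and Vegfa. The share of all genes with this order was not counted. Nos2, the inducible nitric oxide synthase, whose mean is under 1 CPM and which is named after its values were seen, had 1.83 and 1.29 in knockout against 0, 0.276 and 0.150 in wild type (log2 3.25 ± 0.94; edgeR adjusted p = 0.256, DESeq2 adjusted p = 0.0312). Cd274, the PD-L1 ligand, had 107 and 65.4 in knockout against 69.5, 30.7 and 24.2 in wild type, and Adora2b, an adenosine receptor, had 7.82 and 5.56 against 1.57, 2.52 and 5.32. The log2 of Adora2b was 1.08 ± 0.60, or 1.69 ± 0.47 without wild-type replicate 3. Trem1 had 1.34 and 0.685 in knockout against 0, 0.110 and 19.6 in wild type. Its log2 was -2.71 ± 2.53, or 3.63 ± 0.98 without wild-type replicate 3, so its sign rests on that library.

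**Figure D3:**
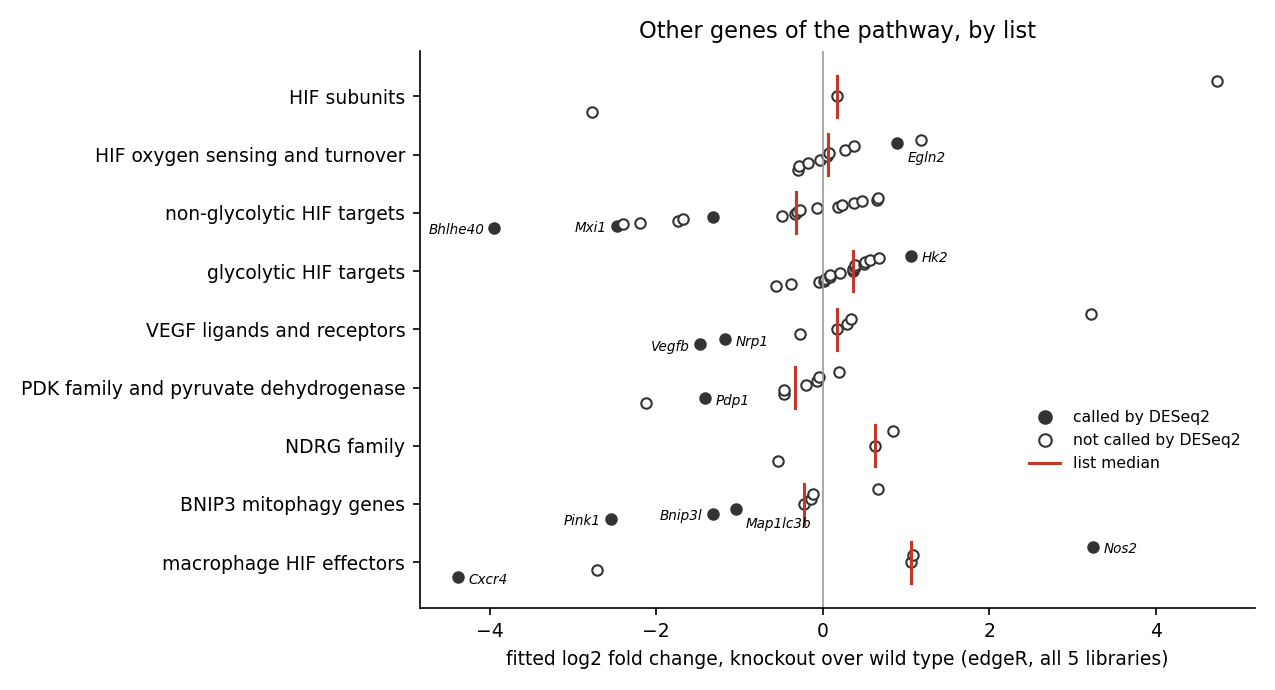
Fitted log2 fold change, knockout over wild type, of the 77 tested pathway genes other than the 7, by list; each point is 1 gene, filled where DESeq2 called it, and the red bar is the list median. The filled genes lie on both sides of 0, 3 higher and 9 lower, and none was called by edgeR; Bnip3l is in 2 lists and is named once.

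Direct HIF targets other than the 7 numbered 35 tested, 17 of them glycolytic. Of the glycolytic targets 14 of 17 had a positive fitted difference, with a median log2 of 0.37, and edgeR called 0 of them (1 of 17 had an unadjusted p under 0.05, near the 5.95% of all genes, and DESeq2 called Hk2, beside 3.37%). Hk2, the inducible hexokinase, had 184 and 167 normalised CPM in knockout macrophages, against 83.8, 65.1 and 103 in wild type, with no overlap (log2 1.06 ± 0.25; edgeR adjusted p = 0.217, DESeq2 adjusted p = 0.0165). Slc2a1, the glucose transporter GLUT1, had 88.6 and 74.0 in knockout against 30.8, 34.5 and 86.7 in wild type, and overlapped only through wild-type replicate 3; its log2 was 0.68 ± 0.49 with that library and 1.32 ± 0.23 without. Gpi1 had 503 and 520 in knockout against 285, 371 and 427 in wild type, and Pfkfb4 lay on the other side with 35.8 and 37.1 against 72.8, 52.4 and 36.1. Several glycolytic genes, such as Gapdh and Pgk1, have near-identical pseudogene copies, so their counts are uncertain.

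The direction of the glycolytic list depended on single libraries. Without knockout replicate 2 it had 8 positive and 9 negative differences with a median of -0.02, and without wild-type replicate 1 it had 9 and 8 with a median of 0.00. Wild-type replicate 1 was the lowest library for 11 of the 17, where 24.7% of all genes were lowest. Without wild-type replicate 3 the list had 15 and 2, with a median of 0.62.

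The 18 tested non-glycolytic targets gave 6 positive and 12 negative differences, with a median of -0.32. edgeR called 0 of them, and DESeq2 called 3 lower, beside 4.79% of all genes. Without overlap 1 was higher and 4 were lower, beside 17.2% and 19% of all genes. Mxi1, an antagonist of MYC, had 2.69 and 8.30 normalised CPM in knockout macrophages, against 36.7, 26.9 and 27.8 in wild type (log2 -2.46 ± 0.55; edgeR adjusted p = 0.206, DESeq2 adjusted p = 5.35e-04), or -1.87 without knockout replicate 1 and -3.52 without knockout replicate 2. Bhlhe40, a transcriptional repressor, had 4.27 and 6.62 in knockout against 84.9, 19.2 and 148 in wild type (log2 -3.94 ± 0.95; edgeR adjusted p = 0.219, DESeq2 adjusted p = 1.84e-04), or -3.25 ± 0.79 without wild-type replicate 3. Hmox1, the haem-degrading enzyme, lay on the other side, with 402 and 627 in knockout against 314, 333 and 331 in wild type (log2 0.66 ± 0.27; edgeR adjusted p = 0.373). The list's direction rested on wild-type replicate 3: without it, 11 were higher and 6 lower, with a median of 0.21. Of the 35 targets together, 17 were highest in wild-type replicate 3, beside 20.2% of all genes, and the part of that library's stromal markers in this was not tested. Ddit4 and P4ha2, named after their values were seen, show it most plainly: Ddit4 had 2.75 and 2.13 in knockout against 0.957, 1.18 and 36.3 in wild type, and P4ha2, a collagen prolyl hydroxylase, had 4.88 and 4.87 against 3.42, 3.95 and 59.5.

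**Figure D4:**
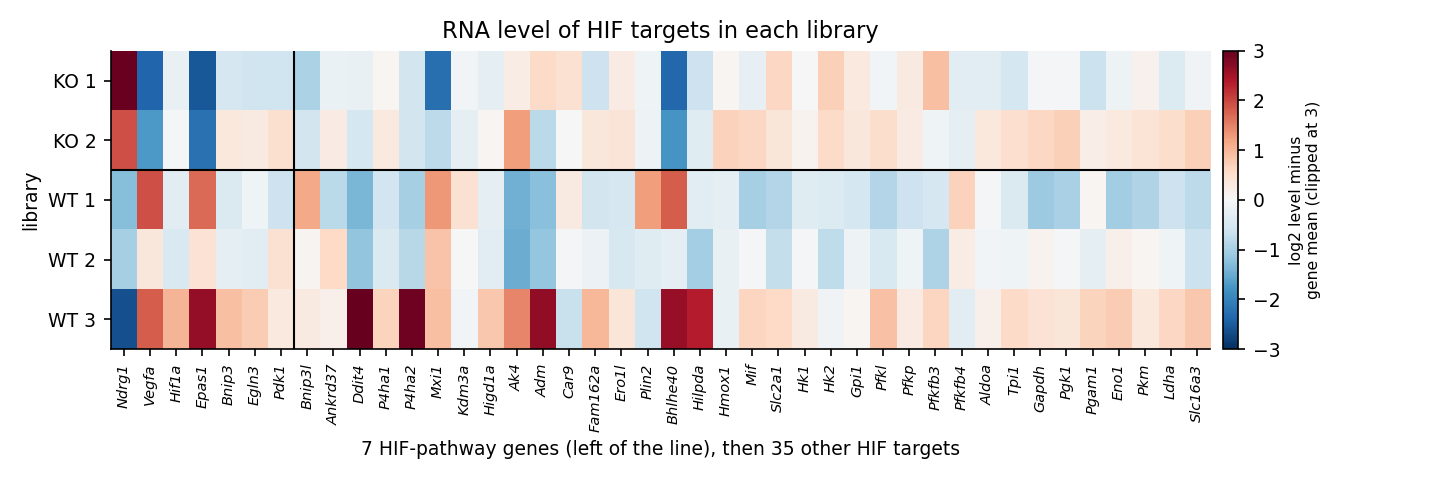
RNA level of the 7 genes (left of the vertical line) and of 35 other HIF targets in the 2 knockout (top) and 3 wild-type libraries; colour is the log2 level minus the gene's mean over the 5 libraries, clipped at 3 on both sides. Ndrg1 is red in both knockout rows, Vegfa, Epas1, Mxi1 and Bhlhe40 are blue there, and 17 of the 35 other targets are highest in wild-type replicate 3.

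The 5hmC counts were not used to choose the genes. The deposited peak table held 9151 peaks with totals of 46230 and 42489 counts for knockout and of 42678 and 219116 for wild type, few per peak. The 2 knockout libraries differed by less than sampling noise over 2544 peaks (chi-square per degree of freedom 0.575) and were counted as 1 sample in every fit but a named alternative. They may be the same library deposited again, so values of both knockout libraries below need not be independent. The wild-type libraries gave 1.20 over 8647 peaks. Within 200 kb of the 7 genes, a window chosen after seeing the data, lay 29 listed peaks: 7 each at Ndrg1, Epas1 and Pdk1, 4 at Hif1a, 3 at Vegfa, 1 at Bnip3 and 0 at Egln3. The peak names show that 25 were called in wild type, 3 in knockout and 1 in both.

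Scaled to 100000 peak counts, 14 of the 29 peaks were lower in both knockout libraries than in both wild-type libraries, 4 were higher and 11 overlapped. The fits used TMM scaling instead, and the 2 can differ in sign. The peak at chr12:73777764-73778113 near Hif1a, counted here as lower, had a fitted log2 of 0.28 ± 0.64 with a filter of 10 counts. Both scalings give levels relative to the other listed peaks, not an absolute amount of 5hmC. All 14 lower peaks were called in wild type, where 60.4% of all such peaks were lower and 2.73% higher, and 3 of the 4 higher ones were called in knockout, where 92.1% of all such peaks were higher. Over all 9151 listed peaks, 47.5% were lower and 18.3% higher. With 1 exception, a peak without overlap was higher in the genotype in which it had been called.

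Only Epas1 had a listed peak inside its body. That peak, at chr17:86802813-86803102 and called in knockout, had 4 and 6 counts in knockout against 3 and 2 in wild type, or 8.65 and 14.1 per 100000 against 7.03 and 0.913. It was too shallow for the main filter. With a filter of 10 counts its log2 difference was 2.97 ± 0.98 (edgeR adjusted p = 0.0492), under which edgeR called 5.11% of 8962 peaks. The means per 100000, 11.4 in knockout and 3.97 in wild type, differ by less than this fit, which used TMM scaling. Having been called in knockout favours this direction: of the peaks so called, 37.7% were called higher under that filter. The 2 wild-type peaks 76.1 kb and 86.2 kb away had 0 counts in both knockout libraries, where a count of 0 allows up to 3 counts in each, against 4 and 16, and 4 and 17, in wild type. The summed counts over a gene body were tested for 1263 genes, of which 9.98% were called, and Epas1 was not among the tested genes.

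At Hif1a, a peak called in knockout at chr12:73898773-73899232 lay 2.09 kb outside the lower-coordinate end of the gene. It had 9 and 7 counts in knockout against 2 and 16 in wild type, which are 19.5 and 16.5 per 100000 against 4.69 and 7.30, so the knockout libraries were higher. With a filter of 10 counts its log2 difference was 1.86 ± 0.69 (edgeR adjusted p = 0.0943), and its being called in knockout favours this direction as well. The printed Hif1a promoter belongs to a start inside the gene span, farther from this peak. Peaks nearest to Vegfa, at 12.4 kb and 37.7 kb, overlapped between genotypes, with 2 and 4 against 3 and 31 counts, and 3 and 4 against 1 and 29 counts.

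Ndrg1 had the only peaks of the 29 that passed the main filter on low counts, 3 of its 7, and 1 of them was called. That peak, at chr15:66998172-66998951, lay 28.5 kb beyond the higher-coordinate end of Ndrg1 and inside the neighbouring gene Gm2895. It had 4 and 5 counts in knockout against 21 and 69 in wild type, or 8.65 and 11.8 per 100000 against 49.2 and 31.5, and no libraries overlapped. Its log2 difference was -1.88 ± 0.63 (edgeR adjusted p = 0.0194). Relative to the other listed peaks, 5hmC there was thus lower in both knockout libraries while Ndrg1 RNA was higher in both. edgeR called 19.7% of the 859 tested peaks in either direction and 1.75% of the 859 lower in knockout; of the tested peaks named for wild type it called 3.55% lower. The call was lost with DESeq2 (adjusted p = 0.373) and with a filter of 10 counts (log2 -1.43, edgeR adjusted p = 0.202). The peak was called in wild type and passed the filter through its wild-type counts, which favours this direction. The other tested peaks, 133 kb and 147 kb away, were not called (log2 -0.80 and -2.73; edgeR adjusted p = 0.468 and 0.138). A nearer peak, 11.04 kb from Ndrg1 and called in knockout, had 7 and 5 counts in knockout against 5 and 18 in wild type, or 15.1 and 11.8 per 100000 against 11.7 and 8.21. The knockout libraries were thus slightly higher there, the opposite direction to the called peak.

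**Figure D5:**
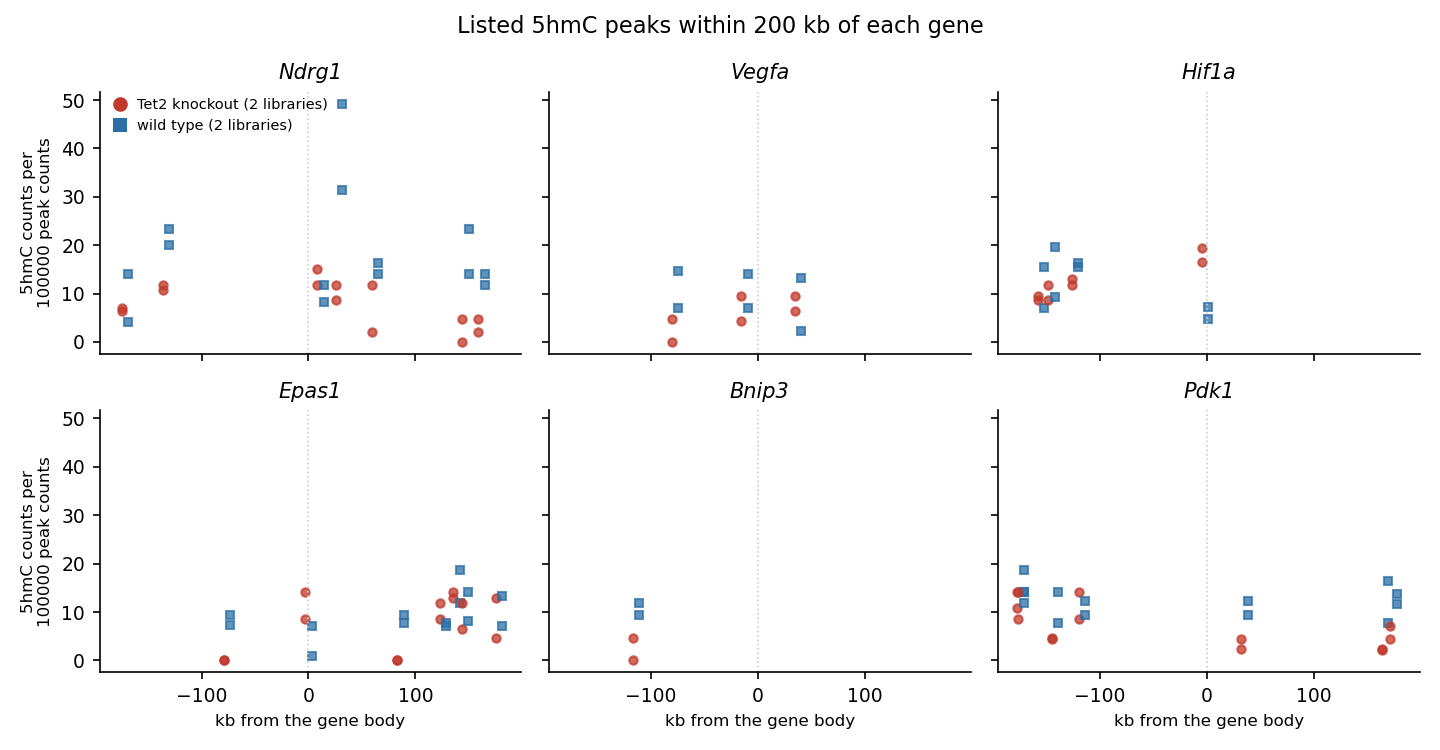
5hmC counts per 100000 peak counts of the 29 listed peaks within 200 kb of 6 genes, by distance from the gene body in kb (negative towards lower coordinates); each point is 1 library, 2 knockout libraries as circles and 2 wild-type libraries as squares, drawn side by side at each peak. The peak 28.5 kb from Ndrg1 is at 8.65 and 11.8 in knockout and at 49.2 and 31.5 in wild type, and the peak 2.09 kb from Hif1a is higher in knockout.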

How the data were processed

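The authors deposited raw counts per gene for 5 RNA libraries and raw counts per peak for 4 5hmC libraries, per the labels. Tools listed in the submitters' processing notes are HTSeq, STAR, BWA, MACS2, Trim Galore and CASAVA 1.4, with the build GRCm38; the sources used here do not give their roles, the annotation or the strand setting. Of 47731 gene IDs, 47224 matched a symbol. Groups and replicate numbers come from the sample titles.

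RNA was fitted over all 14851 genes that passed filterByExpr by the quasi-likelihood test of edgeR 4.0.16 under R 4.3.3 (TMM scaling, glmQLFit, glmQLFTest, two-sided, Benjamini-Hochberg adjustment over all genes, threshold 0.05). The 859 tested peaks and 1263 gene-body sums were fitted in the same way, with the 2 knockout libraries entered as their rounded mean because they differed by less than sampling noise. The 3 samples left take their spread from the 2 wild-type libraries alone. Tests across all genes include the 7, but none is reported for their RNA, since they and all gene lists were chosen with earlier results of these data known. Named genes are the 7, Tet2, the families of the 7, up to 4 genes a list (smallest edgeR p, mean at or above 1 CPM), and the 3 nearest in shape to each.

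Gene positions, peak neighbours and promoters come from RefSeq tables of GRCm38.p6, which hold no exons. Alternatives were DESeq2 1.42.0, other scalings and filters, a replicate block and leaving out each library; the peak window of 200 kb was chosen after seeing the data. The replicate numbers shared by the genotypes were not treated as pairs. In simulated counts with the real means (dispersion 0.258 for RNA), the RNA step of 14851 genes recovered 23.5% of 4-fold, 72.7% of 8-fold and 100% of 32-fold changes, and the step of 859 peaks 63.2%, 80.3% and 100%. It also called 4 unchanged genes and 5 unchanged peaks. All features of a step had the same dispersion, and no simulated library stood apart as wild-type replicate 3 does. These shares therefore do not show what the real fit would miss. There, Cxcr4, at a fitted 20.8-fold, was not called by edgeR.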

Additional observations from a re-analysis of the deposited data

How the results depend on the processing

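edgeR called 2 genes in RNA; the count was 1211 with DESeq2, 2 with RLE scaling, 3 with no filter, and 0 with total-count scaling, with a mean of at least 1 CPM, with a replicate block and without any 1 library (0 to 0). Of the 77 other pathway genes it called 0 in these edgeR fits, and DESeq2 called 12. The genes among the 7 without overlap numbered 3, and 3 to 5 without 1 library. The 169 called 5hmC peaks became 63 with DESeq2, 458 with at least 10 counts, 303 with the knockout libraries as 2 samples, 258 with a replicate block added to that, and 185 to 234 without either knockout library; the 126 called gene sums became 19, 230, 325, 308 and 152 to 153. Without a wild-type 5hmC library no residual degrees of freedom remain, so no count was made. The peak 28.5 kb from Ndrg1 lost its call with DESeq2 and with at least 10 counts, as given above, and kept its sign in all fits (log2 -2.59 to -1.34); with the knockout libraries as 2 samples it was -2.45 (edgeR adjusted p = 5.36e-04), and -2.59 (edgeR adjusted p = 0.00541) with a replicate block added to that. Without knockout replicate 2 the peak 147 kb away had log2 -7.11 (edgeR adjusted p = 0.0369). Arnt changed sign: 0.18 with all libraries, it was -0.013 without knockout replicate 1 and up to 0.34 without another library. Deviations of same-numbered RNA libraries from their genotype means had correlations of 0.07 and -0.09 over 2 pairs. The deviations of the 2 knockout libraries mirror each other, and the wild-type mean includes replicate 3. The correlations therefore cannot show whether the numbers pair the samples. The cause of these shifts was not tested. Precision is limited by 2 knockout libraries, by 3 and 9 counts for Epas1 and 5 and 25 for Egln3 in knockout, and by few 5hmC counts per peak.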
